A study of Mus musculus with 15 samples.

Results

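Stimulation of autoreactive B cells with chromatin immune complexes was compared with media alone. PL2-3 is a monoclonal antibody to chromatin, which forms complexes with it. AM-14 mice carry a transgenic B cell receptor that binds IgG. The comparison took the 3 arrays titled PL2-3 and the 3 titled media alone, chosen by title, so 6 of the 15 arrays of the series, each 1 sample of murine AM-14 B cell total RNA on an Affymetrix mouse array. All 3 replicates of a group carry a number. Replicates 1 and 2 were labelled with the Enzo kit and replicate 3 with the Ambion kit, in both groups. The series also holds 3 arrays each of AM-14 B cells stimulated with anti-IgM, which crosslinks the B cell receptor, with CpG 1826, an oligonucleotide that engages Toll-like receptor 9, and with both. PL2-3 was set against anti-IgM and CpG only to show where it differed. The arrays with both agents were left out of the main fit and used only in a repeat of it with all 15 arrays. Every group, media included, came from AM-14 mice, whose B cells see their antigen in IgG complexes and are not a polyclonal repertoire. Dose, time, strain, age, the purity of the B cells and whether replicates came from separate mice are not given in the sources used here, and the p-values therefore reflect the scatter among these arrays, which may be technical.

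An immune complex that holds chromatin can engage an autoreactive B cell through different receptors. The antibody part binds the IgG-specific B cell receptor, and the DNA carried in with it can meet Toll-like receptor 9 in the endosome, where the adaptor Myd88 passes the signal to NF-kB and interferon regulatory factors. Receptor crosslinking alone sends signals through Cd79a and Cd79b, Syk and calcium. Fcgr2b, the inhibitory Fc receptor of B cells, binds the antibody part of the same complex. The model is used in work on how rheumatoid factor B cells are activated in lupus-like disease.

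The deposited values were linear probe set signals. Median signals were 430, 496 and 291 on the PL2-3 arrays and 468, 514 and 412 on the media arrays, and between arrays of one group the lowest correlation of log2 signals was 0.868. The beta-actin ratio of 5' to 3' signal, a sign of labelling length, was lower on Ambion arrays in both groups, at 0.108 and 0.153 for PL2-3 and media, against 0.392 to 0.468 for PL2-3 and 0.440 to 0.445 for media on Enzo arrays. Because each group holds the same kits, the kit term changes only the spread and not the size of a difference. Defining B cell genes were present on all 6 arrays, and the lowest of the 14 tested B lineage genes was at 485 on any PL2-3 array. No marker of any list was listed at 0. In bulk RNA, fewer cells of a type and less RNA per cell cannot be told apart.

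Of 18193 genes with one symbol, 12764 reached the median signal of the array on 3 or more of the 12 arrays of the 4 groups and were tested with limma, as log2 of the signal plus 80.99. Changes are log2 differences of PL2-3 minus media, which understate changes of dim genes. In PL2-3 cells 4057 genes differed from media at a Benjamini-Hochberg adjusted p under 0.05, 31.8% of those tested, and 2541 did without the labelling term. Of these, 1858 rose and 2199 fell, 14.6% and 17.2% of all genes tested. The median change over all genes was -0.10. With the arrays scaled to the same median, that median was 0.104, 3496 genes were called, and 63.6% of them were higher with PL2-3, where 45.8% were higher without that scaling. At 2-fold or more, 684 genes rose and 1134 fell, and at 4-fold or more, 61 rose and 130 fell. Of the called genes, 4033 changed the same way within both labelling kits, and 3401 had signals that did not overlap between the groups, against 4413 of all genes, which is 34.6%. With 3 arrays against 3 no exact permutation test of a single gene can go below p = 0.1.

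The largest rises included the secreted factors Xcl1, Ccl3 and Il6. Xcl1 had signals of 20042, 27310.3 and 19359.7 on the PL2-3 arrays, against 655, 673 and 456 on the media arrays. Xcl1 is lymphotactin, the chemokine that draws Xcr1-bearing dendritic cells. Xcl1 rose by 5.05 ± 0.21 (SE, adjusted p = 4.3e-09). All 3 PL2-3 arrays lay far above all media arrays. Ccl3 had signals of 78485, 109130.0 and 52146 on the PL2-3 arrays, against 11757, 13841 and 2555 on the media arrays. Ccl3 rose by 3.34 ± 0.29 (SE, adjusted p = 2.0e-06). Ccl3 is a chemokine that attracts T cells and monocytes. The Ambion media array was the lowest of the 6 for Ccl3, and the groups did not overlap. Il6 had signals of 5487, 5946 and 3184 on the PL2-3 arrays, against 794, 608 and 155 on the media arrays. Il6 codes for interleukin 6, a cytokine that promotes plasma cell formation. Il6 rose by 3.20 ± 0.33 (SE, adjusted p = 7.4e-06). No media array reached any PL2-3 array for Il6, and the lowest media value came from replicate 3.

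Ifng had signals of 4076, 3618 and 34.6 on the PL2-3 arrays, against 25.0, 31.2 and 14.2 on the media arrays. Ifng codes for interferon gamma. Ifng rose by 3.54 ± 0.70 (SE, adjusted p = 0.0013). The rise was carried by PL2-3 replicates 1 and 2, the Enzo arrays, with a difference of 5.17 within Enzo and 0.28 within Ambion, so PL2-3 replicate 3 stood near media. Among the 22 tested cytokine and chemokine genes, 9 rose and 3 fell, where 14.6% of all tested genes rose and 17.2% fell. Their median change was 0.32 beside -0.10 over all genes. The others that rose were Il12b (1.26), Tnf (1.63), Lta (1.56), Il2 (2.75) and Ccl4 (2.72), where Il2 and Tnf are classic activation cytokines. Ltb, the membrane lymphotoxin partner, fell by 2.80, Ccl5 fell by 1.48 and Il12a fell by 1.36. Signals of Il12b overlapped between the groups, and its call was lost without the labelling term (adjusted p = 0.12). Il10 had signals of 584, 777 and 160.2 on the PL2-3 arrays, against 343, 392 and 505 on the media arrays. Il10, an anti-inflammatory cytokine gene, did not pass the test at 0.08 (adjusted p = 0.92), and its groups overlapped. Ifnb1, the interferon beta gene, had signals of 432, 987 and 284 with PL2-3, against 509.5, 677 and 558 with media, and did not pass either (-0.17, adjusted p = 0.76).

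Serpinb9b and Cst7 encode inhibitors of proteases of granules and lysosomes. Serpinb9b had signals of 13286, 14466 and 5269 on the PL2-3 arrays, against 883, 829.6 and 994 on the media arrays. Serpinb9b rose by 3.37 ± 0.25 (SE, adjusted p = 7.2e-07). Cst7 had signals of 7241, 6372 and 6388 on the PL2-3 arrays, against 438, 414 and 636 on the media arrays. Cst7 is cystatin F. Cst7 rose by 3.57 ± 0.21 (SE, adjusted p = 1.0e-07). Both genes had PL2-3 arrays all above every media array, with the Ambion PL2-3 array lowest for Serpinb9b. Bcat1, the cytosolic enzyme that transaminates branched-chain amino acids, rose by 3.28 ± 0.19. Crabp2, a carrier of retinoic acid, rose by 3.64 ± 0.42, and Bex1 by 3.50 ± 0.18. The other large rises were Fzd9, a Wnt receptor (3.07), Trib1, a pseudokinase (3.04), Zc3h12c, a zinc finger protein of the Regnase family (3.02), Lmnb2, lamin B2 (2.97), and Il15ra, the interleukin 15 receptor alpha chain (2.90). Another probe set of Trib1 changed by 0.25 and one of Lmnb2 by 0.51, so those 2 rest on the brighter probe set.

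**Figure D1:**
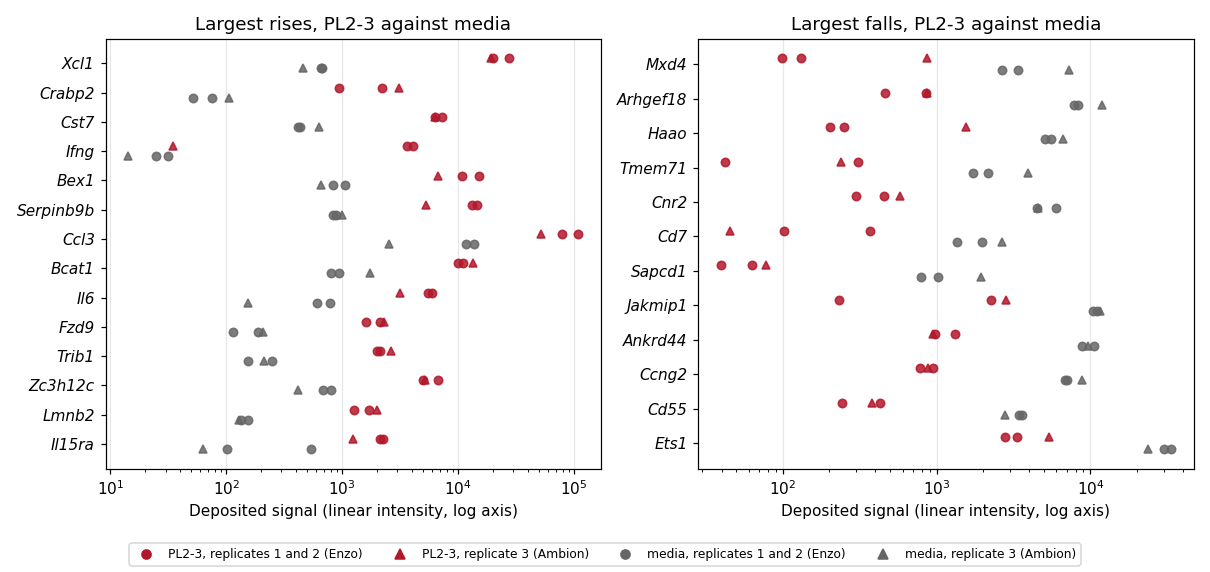
Deposited signals on a log axis for the 14 genes that rose most (left) and the 12 that fell most (right) with PL2-3 (red), against media (grey); circles are replicates 1 and 2 with the Enzo kit and triangles replicate 3 with the Ambion kit. Genes were picked without overlap of the groups. The Ambion PL2-3 point of Ifng, at 34.6, lies just above the media points at 14.2 to 31.2.

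The largest falls included Mxd4, Ets1 and Ccng2. Mxd4 had signals of 132, 99.3 and 862 on the PL2-3 arrays, against 3401, 2653 and 7275 on the media arrays. Mxd4 is a Max partner that represses Myc target genes. Mxd4 fell by 3.64 ± 0.31 (SE, adjusted p = 1.8e-06). Every PL2-3 array lay below every media array, and the Ambion arrays were the highest within each group. Ets1 had signals of 3308, 2800.3 and 5392 on the PL2-3 arrays, against 29918, 33359 and 23819 on the media arrays. Ets1 is a transcription factor of resting lymphocytes. Ets1 fell by 2.94 ± 0.23 (SE, adjusted p = 1.1e-06). All media arrays were above all PL2-3 arrays. Ccng2 had signals of 949.6, 783 and 873 on the PL2-3 arrays, against 7051, 6814 and 8774 on the media arrays. Ccng2 is cyclin G2, an atypical cyclin of non-dividing cells. Ccng2 fell by 3.00 ± 0.19 (SE, adjusted p = 1.9e-07). The 3 PL2-3 arrays lay close together, all far below the media arrays. The other 9 falls were Arhgef18 (-3.56), Haao, an enzyme of tryptophan breakdown (-3.44), Tmem71 (-3.34), Cnr2, the cannabinoid receptor of B cells (-3.30), Cd7 (-3.20), Sapcd1 (-3.15), Jakmip1 (-3.11), Ankrd44 (-3.08) and Cd55 (-2.98), a brake on complement. Both the 14 rises and the 12 falls were picked among genes whose groups did not overlap.

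Of 24 ribosome biogenesis genes tested, 23 rose and 0 fell, with a median of 1.41, where 14.6% of all tested genes rose. No member fell at an unadjusted p under 0.05 in limma. The list's median log2 signal was 13.8, 13.8 and 14.1 on PL2-3 arrays, against 12.6, 12.7 and 12.1 on media arrays, so no array overlapped. Polr1b had signals of 9207, 9010.2 and 6418 on the PL2-3 arrays, against 2313, 2224 and 1012 on the media arrays. Polr1b is a core subunit of RNA polymerase I, which copies the ribosomal RNA genes. Polr1b rose by 2.17 ± 0.17 (SE, adjusted p = 1.2e-06). Rrp9, a factor in pre-ribosomal RNA processing, rose by 2.37 ± 0.21. Of 19 cytosolic aminoacyl-tRNA synthetases, which load amino acids on tRNA, 16 rose, 2 did not pass and Qars fell, with a median of 0.89, and Farsa rose by 1.68 ± 0.20.

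Of 17 cholesterol synthesis and uptake genes, 14 rose and 0 fell, with a median of 0.92, where 14.6% of all tested genes rose. Sqle had signals of 8832, 7319 and 11435 on the PL2-3 arrays, against 2798, 1746 and 3819.6 on the media arrays. Sqle is squalene epoxidase. Sqle rose by 1.74 ± 0.17 (SE, adjusted p = 6.0e-06). Media and PL2-3 arrays did not overlap. Srebf2, the transcription factor that governs the pathway, rose by 1.01 ± 0.19. The promoters of 2 of these genes are shown because a CCAAT box, which the factor NF-Y binds in many sterol genes, lay in all 14 list promoters that could be matched. The letters CCAAT, searched on both strands in the 250 bases before the start, were in 39.7% of the promoters of tested genes. Lists that did not rise as a whole also held them often. They were in 16 of 18 matched promoters of the unfolded protein response, 13 of 15 of mitosis and 7 of 8 of MHC class II. In ribosome biogenesis they were in 4 of 18. Capitals mark the match. The 2 sequences are from RefSeq GRCm38.p6, Idi1 at chr13:8885356-8885605 and Srebf2 at chr15:82147019-82147268, both on the plus strand.
Idi1: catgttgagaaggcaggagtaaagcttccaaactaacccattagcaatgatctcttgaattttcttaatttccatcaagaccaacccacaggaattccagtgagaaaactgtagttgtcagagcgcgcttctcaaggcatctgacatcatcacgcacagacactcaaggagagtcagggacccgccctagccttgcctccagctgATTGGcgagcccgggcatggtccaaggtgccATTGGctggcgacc
Srebf2: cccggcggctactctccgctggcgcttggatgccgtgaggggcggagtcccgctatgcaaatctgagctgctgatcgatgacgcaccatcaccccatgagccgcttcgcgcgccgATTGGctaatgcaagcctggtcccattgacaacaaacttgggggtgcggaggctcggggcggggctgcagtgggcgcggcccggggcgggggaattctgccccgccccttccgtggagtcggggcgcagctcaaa
A match is a description and not a site of binding. In Idi1 the letters stood 2 times and began 45 and 14 bases before the start, and in Srebf2 they began 135 bases before it.

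Among glycolysis genes, 8 of 14 rose and 2 fell, with a median of 0.74. Hk2 had signals of 10926, 10334 and 9911 on the PL2-3 arrays, against 3098, 2491 and 2239 on the media arrays. Hk2 is hexokinase 2, which traps glucose in the cell. Hk2 rose by 1.97 ± 0.14 (SE, adjusted p = 5.6e-07). The 3 PL2-3 signals were all above those of media. Slc16a1, a lactate carrier, rose by 1.47 ± 0.19, while the glucose carrier Slc2a3 and Hk1 fell. Of 20 oxidative phosphorylation genes, 7 rose and 0 fell, with a median of 0.29, and Uqcrc1 of complex III rose by 0.73 ± 0.12 (adjusted p = 0.11 without the labelling term). Of 16 heat shock and chaperonin genes, 10 rose and 0 fell. Hspd1, the mitochondrial chaperone, rose by 1.22 ± 0.14 and Tcp1, a chaperonin subunit, by 0.92 ± 0.11. In the unfolded protein response, 5 of 20 rose and 3 fell, where 14.6% of all tested genes rose and 17.2% fell. Atf4 rose by 0.68 ± 0.12, which averaging the probe sets of a gene took to 0.21 (adjusted p = 0.39), and Eif2ak3, the stress kinase Perk, fell by 1.14.

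**Figure D2:**
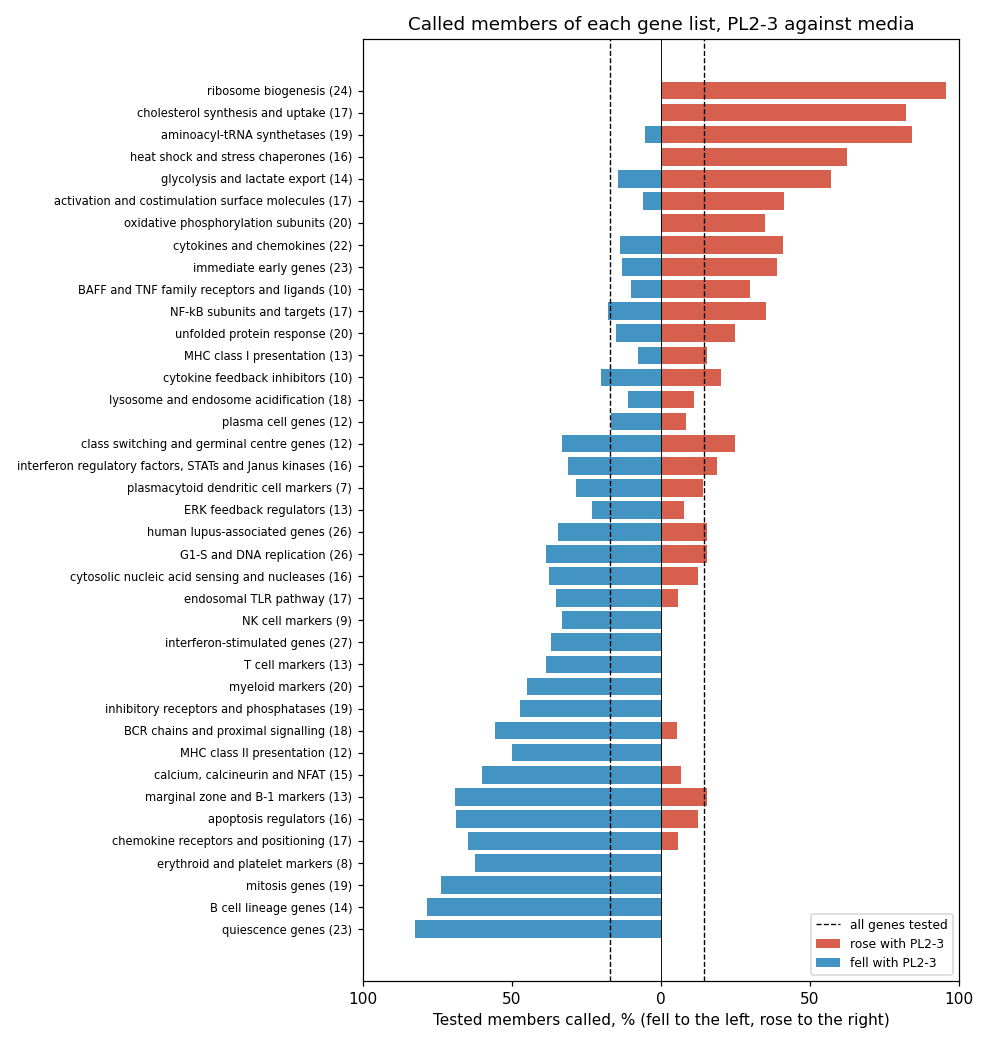
Percent of the tested members of each of 39 gene lists that rose (right, red) or fell (left, blue) with PL2-3 against media, with the number tested in brackets; dashed lines mark the 14.6% and 17.2% of all tested genes. Ribosome biogenesis is at 23 of 24 rising, and 19 of 23 quiescence genes fell.

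Quiescence genes fell in 19 of 23 cases, with 0 rising also at an unadjusted p under 0.05, and a median of -1.30. Among them were Klf2, Foxo1, Cdkn1b and Pdcd4, which hold lymphocytes at rest. Of 26 genes for entry into S phase and DNA replication, 4 rose and 10 fell, where 14.6% of all tested genes rose and 17.2% fell. Ccnd2 had signals of 28044, 22135 and 33037 on the PL2-3 arrays, against 10938, 10511 and 5987 on the media arrays. Ccnd2, cyclin D2, drives G1. Ccnd2 rose by 1.62 ± 0.27 (SE, adjusted p = 3.4e-04). All PL2-3 arrays were above all media arrays for Ccnd2. Rrm2 had signals of 4360.4, 4102 and 2099.6 on the PL2-3 arrays, against 12074, 10386 and 33881 on the media arrays. Rrm2 makes deoxynucleotides. Rrm2 fell by 2.25 ± 0.44 (SE, adjusted p = 0.0011). The PL2-3 arrays were below the media arrays, and media replicate 3 was the highest of the 6. Of 19 mitosis genes, 14 fell and 0 rose, with a median of -1.33, but that median was -0.77 on Enzo and -2.35 on Ambion arrays. Without media replicate 3, 1 rose and 12 fell, with a median of -0.83. Mki67, the Ki-67 proliferation gene, was at 5857, 5199 and 4051 with PL2-3, against 14854, 11563 and 29953 with media.

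**Figure D3:**
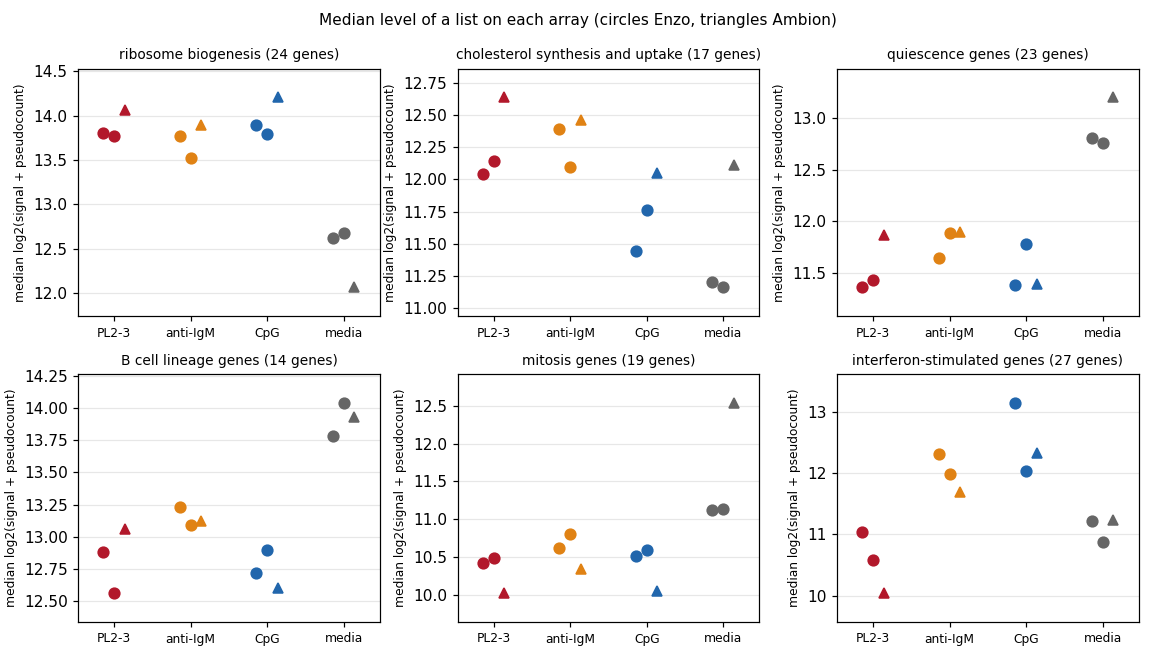
Median of log2(signal plus pseudocount) over the members of 6 gene lists on each of the 12 arrays, by group in the order PL2-3, anti-IgM, CpG and media; circles are Enzo arrays and triangles Ambion arrays. Ribosome biogenesis medians are 13.8 to 14.1 with PL2-3 and 12.1 to 12.7 with media, and the interferon-stimulated genes are 10.04 to 11.03 with PL2-3 and 10.9 to 11.2 with media.

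Of 18 genes of B cell receptor chains and proximal signalling, 10 fell, 7 did not pass and Cd81 rose. Of all tested genes, 17.2% fell and 14.6% rose. Cd79a had signals of 14020.1, 12802 and 13849 on the PL2-3 arrays, against 58349.8, 80259 and 40925 on the media arrays. Cd79a and Cd79b pass the receptor signal into the cell. Cd79a fell by 2.08 ± 0.21 (SE, adjusted p = 6.6e-06). Every PL2-3 array was below every media array. Bank1 had signals of 2503, 2898 and 4413 on the PL2-3 arrays, against 18061, 20329 and 27774 on the media arrays. Bank1 is a scaffold of the receptor. Bank1 fell by 2.74 ± 0.15 (SE, adjusted p = 5.5e-08). The groups lay well apart. Syk, the receptor kinase, fell by 1.88 and Cd79b by 2.49. Of 19 inhibitory receptors and phosphatases, 9 fell and 0 rose, with 1 rising at an unadjusted p under 0.05. Fcgr2b had signals of 1407, 1540.1 and 3164 on the PL2-3 arrays, against 9091, 9486 and 11081 on the media arrays. Fcgr2b is the inhibitory Fc receptor. Fcgr2b fell by 2.32 ± 0.20 (SE, adjusted p = 1.9e-06). No media array overlapped with PL2-3. Cd22 and Siglecg, sialic acid receptors that damp the receptor signal, fell by 2.60 and 2.16. Of 15 genes of calcium, calcineurin and NFAT, 9 fell and Orai1 rose, with Itpr3, the calcium channel of the endoplasmic reticulum, falling by 2.40.

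The B lineage genes fell in 11 of 14 cases, with none rising. Their summed signal was 113829, 96042 and 165888 with PL2-3 and 321190, 379666 and 296323 with media. Pou2af1 had signals of 11363, 12513 and 13610.5 on the PL2-3 arrays, against 47173, 51968 and 53015 on the media arrays. Pou2af1 is the coactivator OBF-1 of germinal centre formation. Pou2af1 fell by 2.02 ± 0.13 (SE, adjusted p = 2.8e-07). Batf, which switching needs, rose by 2.09 ± 0.23 and Ung, the uracil glycosylase of switching, by 1.32 ± 0.17. Class switching and germinal centre genes were 3 up and 4 down of 12, where 14.6% of all tested genes rose and 17.2% fell. Irf4 rose by 1.39 ± 0.16, whereas Jchain and Mzb1, plasma cell genes, fell by 1.82 and 2.19. Prdm1, the plasma cell repressor Blimp-1, was at 1182, 1186 and 836 with PL2-3, against 1140.5, 1028 and 1522 with media, and did not pass the test (-0.19, adjusted p = 0.63). Jchain signals were 14022, 8026 and 9647 with PL2-3, against 24719, 22549.7 and 86843 with media, with media replicate 3 far above the other 5 arrays.

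Antigen presentation was split. Of 12 MHC class II pathway genes, 6 fell and 0 rose, and none of the 6 was a chain of the A or E molecules. One of the 6, Marchf1, had 2 other probe sets, of which 1 went the other way, at 0.91. H2-Ob and H2-Oa, the subunits of the DO regulator, fell by 2.19 and 1.94, and H2-DMa and H2-DMb2, subunits of the DM peptide exchanger, by 1.48 and 1.51. The chains H2-Aa (-0.14), H2-Ab1 (-0.23), H2-Ea (-0.09) and H2-Eb1 (-0.17) did not pass the test. Among 17 activation surface genes 7 rose and 1 fell, where 14.6% of all tested genes rose and 17.2% fell. Il2ra had signals of 6923, 5485 and 3966 on the PL2-3 arrays, against 1593, 1850.2 and 565 on the media arrays. Il2ra is the interleukin 2 receptor alpha chain. Il2ra rose by 2.08 ± 0.23 (SE, adjusted p = 1.4e-05). No media array reached a PL2-3 array. Cd44, Cd86, Cd83, Cd200, Cd274 and Pdcd1lg2 also rose, with another probe set of Cd86 at -0.35, and Icosl, the ligand of the T cell receptor Icos, fell by 1.83.

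Positioning genes mostly fell, in 11 of 17 cases, and Ccr7, which guides cells to the T zone, rose. S1pr1, the exit receptor, fell by 1.69 and P2ry10 by 2.00, and without the labelling term the adjusted p of S1pr1 was 0.11. Of 13 marginal zone and B-1 genes, 9 fell and 2 rose, where 17.2% of all tested genes fell and 14.6% rose. Among apoptosis regulators 11 of 16 fell and 2 rose. Pim3, a survival kinase, rose by 1.26, and Bmf, a death-promoting BCL2 relative, fell by 1.21, a call that averaging the probe sets of a gene ended (adjusted p = 0.11). Bcl2, Mcl1, Xiap and Pim2, which favour survival, also fell. So did Bcl2l11, Bad, Bbc3, Casp8 and Casp9, which favour death, while Bid, which also favours death, rose. Without the labelling term the adjusted p of Bad was 0.083. Birc5, which codes for the mitotic protein survivin, fell by 1.51, with signals of 2403, 2393 and 1686 with PL2-3, against 3614, 4192 and 15688 with media. Without PL2-3 replicate 3 its adjusted p was 0.079, with all 15 arrays 0.085 and without the intensity trend 0.053. Of BAFF and TNF family genes, 3 of 10 rose and 1 fell. Tnfrsf13b had signals of 13811, 15399 and 18393 on the PL2-3 arrays, against 6721, 6077 and 10188 on the media arrays. Tnfrsf13b codes for TACI. Tnfrsf13b rose by 1.07 ± 0.14 (SE, adjusted p = 5.4e-05). The groups did not overlap.

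Immediate early genes moved unevenly, 9 of 23 up and 3 down, where 14.6% of all tested genes rose and 17.2% fell. Egr2 had signals of 23659, 22702 and 26496 on the PL2-3 arrays, against 6866, 6623 and 3490.0 on the media arrays. Egr2 is a zinc finger factor that receptor signals induce. Egr2 rose by 2.14 ± 0.21 (SE, adjusted p = 4.3e-06). All PL2-3 arrays were above all media arrays. Myc had signals of 33820.3, 42821 and 17417 on the PL2-3 arrays, against 10047, 10004 and 3099.7 on the media arrays. Myc drives cell growth. Myc rose by 2.10 ± 0.18 (SE, adjusted p = 2.0e-06). Each PL2-3 array exceeded each media array. Fosl1 rose by 2.13 ± 0.24 and Nr4a3, an orphan nuclear receptor, by 2.34 ± 0.34. Btg2, Egr3 and Jund fell, but the other probe set of Egr3 changed by 0.89 and that of Jund by 1.04, in the opposite direction.

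Of the NF-kB list, 6 of 17 rose and 3 fell, where 14.6% of all tested genes rose and 17.2% fell. Nfkbiz had signals of 26379.7, 43804 and 15538 on the PL2-3 arrays, against 7182, 5745 and 4013 on the media arrays. Nfkbiz is an atypical IkB that works with NF-kB at the Il6 gene. Nfkbiz rose by 2.24 ± 0.19 (SE, adjusted p = 1.8e-06). The media arrays all lay below the PL2-3 arrays. Birc3 and Bcl3 fell by 1.11 and 1.37. The Il6 promoter is shown for its NF-kB motif GGG followed by any 2 bases and TTTCC, searched on both strands and found in 2 of the 19 matched promoters of the cytokine and chemokine list, to which Il6 belongs, in 4 of the 15 of the NF-kB list, and in 1.79% of the promoters of tested genes. It lies at chr5:30012864-30013113 on the plus strand of RefSeq GRCm38.p6, and the motif in capitals begins 44 bases before the start.
Il6: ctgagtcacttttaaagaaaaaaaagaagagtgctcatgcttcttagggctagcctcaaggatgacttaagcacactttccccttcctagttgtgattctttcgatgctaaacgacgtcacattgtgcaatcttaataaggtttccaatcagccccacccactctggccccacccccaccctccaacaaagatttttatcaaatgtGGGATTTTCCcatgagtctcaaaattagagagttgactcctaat
This match is a description, and no factor binding was measured.

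Tlr7 and Tlr9, the endosomal sensors of RNA and DNA, did not pass the test. Tlr9 had signals of 396, 999 and 298 on the PL2-3 arrays, against 524, 732 and 633 on the media arrays. Tlr7 had signals of 1864, 1878 and 705 on the PL2-3 arrays, against 1283, 878 and 696 on the media arrays. The groups overlapped for both, with differences of -0.28 (adjusted p = 0.66) for Tlr9 and 0.52 (adjusted p = 0.10) for Tlr7. Tlr7 was called higher in 4 of 25 alternative settings. Over them its difference lay between 0.37 and 0.83 and its adjusted p between 0.0069 and 0.33. Myd88 had -0.41 (adjusted p = 0.062) and was called lower in 3 of 25 alternative settings, with an adjusted p between 0.039 and 0.55. Of the 17 tested genes of the endosomal pathway, 6 fell and Traf6 rose. Unc93b1, the chaperone that takes these receptors to endosomes, fell by 0.98, and Irak3, an inhibitor of the pathway, by 1.87. Among the cytosolic sensors and nucleases 6 of 16 fell and 2 rose, where 17.2% of all tested genes fell and 14.6% rose. Dnase2a, the lysosomal DNase, fell by 1.41.

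The interferon-stimulated genes that were called against media all fell. Of 27 tested members, which interferons switch on, 10 fell and 0 rose with PL2-3 against media, where 17.2% of all tested genes fell. At an unadjusted p under 0.05 in limma, 1 rose. Their median was -0.54 beside -0.10 over all genes. Bst2, a member that was not called, was higher on every PL2-3 array than on any media array. Its signals were 3565, 2319 and 2953 with PL2-3, against 2282.5, 1766 and 1364 with media. Ifit3 had signals of 39.3, 216 and 440.3 on the PL2-3 arrays, against 1180.1, 1071 and 1794 on the media arrays. Rsad2 had signals of 5931, 4259 and 4687 on the PL2-3 arrays, against 14239.9, 11188 and 35259.6 on the media arrays. Ifit3 and Rsad2, which encodes viperin, are antiviral genes. Ifit3 fell by 2.40 ± 0.38 (SE, adjusted p = 2.3e-04). Rsad2 fell by 1.84 ± 0.35 (SE, adjusted p = 8.9e-04). Both were below media on every PL2-3 array, and media replicate 3 was the highest of the 6. The list median was -0.36 on Enzo and -1.17 on Ambion arrays. Without media replicate 3, 8 fell and 0 rose, with a median of -0.48. On the Enzo arrays alone, 6 fell and 3 rose.

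**Figure D4:**
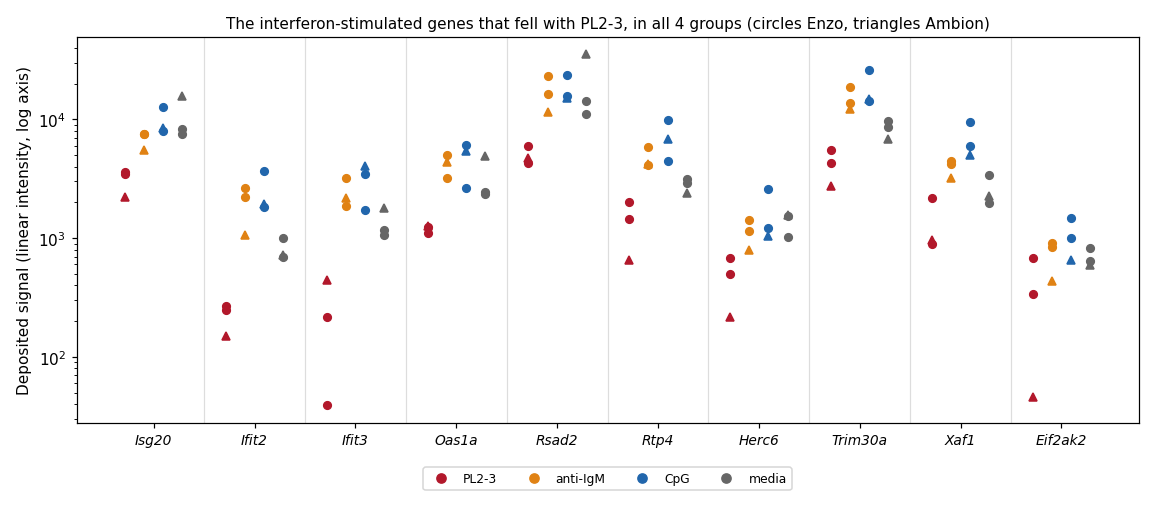
Deposited signals on a log axis of the 10 interferon-stimulated genes that fell with PL2-3, in PL2-3 (red), anti-IgM (orange), CpG (blue) and media (grey); circles are Enzo arrays and triangles Ambion arrays. The PL2-3 points lie below the media points for each gene except Xaf1 and Eif2ak2, where the highest PL2-3 point falls within the media range.

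The 2 promoters are shown because an interferon response element, GAAA followed by any 2 bases and GAAA, searched on both strands, was in 11 of the 20 promoters of the list that were matched and in 3.14% of tested genes. Both sequences are from RefSeq GRCm38.p6, Ifit3 at chr19:34583279-34583528 on the plus strand and Rsad2 at chr12:26456453-26456702 on the minus strand. Capitals mark the matches.
Ifit3: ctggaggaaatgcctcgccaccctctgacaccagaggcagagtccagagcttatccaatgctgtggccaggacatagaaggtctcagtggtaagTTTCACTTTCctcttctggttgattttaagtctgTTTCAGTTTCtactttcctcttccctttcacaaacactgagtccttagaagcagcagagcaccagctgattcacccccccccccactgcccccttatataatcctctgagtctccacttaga
Rsad2: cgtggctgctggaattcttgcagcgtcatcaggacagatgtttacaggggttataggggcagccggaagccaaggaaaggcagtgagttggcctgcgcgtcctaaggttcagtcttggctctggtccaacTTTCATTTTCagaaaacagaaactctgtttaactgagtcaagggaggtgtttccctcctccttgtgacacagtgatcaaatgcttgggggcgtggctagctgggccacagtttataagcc
The element was matched 2 times in Ifit3 and 1 time in Rsad2. A match says nothing on whether the factor binds in these cells.

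The list was also read against the other stimuli. Against anti-IgM 163 of 12764 genes differed, 1.28%, with 38 without the labelling term, 54 without the intensity trend and 91 with all 15 arrays. Of the 163, 68 were higher (0.533%) and 95 lower with PL2-3 (0.744%), and 13 of the 27 list members were lower and 0 higher. Against CpG 634 genes differed, 4.97%, with 242 without the labelling term, 407 without the intensity trend and 418 with all 15 arrays. Of the 634, 320 were higher (2.51%) and 314 lower (2.46%), and 22 of the 27 members were lower and 0 higher. The comparisons share the PL2-3 arrays. The share of called genes that were higher with PL2-3 was 30.8% against anti-IgM and 26.4% against CpG after scaling to the same median, where it was 41.7% and 50.5% without it. The 163 became 255 without media replicate 3, 102 and 108 without anti-IgM replicates 1 and 2, and 98 and 103 without PL2-3 replicates 1 and 2. The 634 became 403 without CpG replicate 1 and 396 without PL2-3 replicate 3. The 13 list members became 8 without anti-IgM replicate 1 and lay between 4 and 17 over all settings, while the 22 lay between 16 and 26. Ifit2, for example, was at 268, 249.6 and 151 with PL2-3, at 1062 to 2617 with anti-IgM, at 1825 to 3702 with CpG, and at 698, 1005 and 720 with media. Its differences were -2.68 against anti-IgM (adjusted p = 0.00018) and -3.03 against CpG (adjusted p = 1.6e-05). Irf7, the factor of the interferon programme, was lower too, by 1.62 than with anti-IgM and by 1.89 than with CpG.

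Some genes that rose against media also differed from another stimulus. Serpinb9b was 3.11 higher and Slc7a3, an amino acid carrier, 2.38 higher than with anti-IgM. Lag3, a receptor for MHC class II, was 2.15 higher than with anti-IgM, and Ifnlr1, the lambda interferon receptor chain, 2.10 higher. Serpinb9b and Lag3 were each 1.16 higher than with CpG too, but Ifnlr1 was 1.12 lower (adjusted p = 0.030). Slc7a3 had signals of 8389, 7964 and 18352 with CpG, against 6011, 6537 and 6868 with PL2-3. Il6 was 3.29 higher than with anti-IgM and 1.63 lower than with CpG. Against CpG, Xcl1 was 4.64 higher, Bex1 3.40, Cst7 3.37, Crabp2 2.92 and Rgs16, a brake on G protein signals, 2.86. Cst7 was also 1.58 higher than with anti-IgM. Bex1 had signals of 10789, 15309 and 6759 with PL2-3, against 17383, 14659 and 11691 with anti-IgM. Rgs16 had signals of 1177, 2063 and 1323 with PL2-3, against 2509, 3243 and 1836 with anti-IgM. Wfdc21 (-2.60) and Milr1 (-2.51), both of which fell against media, were lower than with CpG. Their calls against media were lost in several settings. The adjusted p of Wfdc21 was 0.063 without the labelling term and that of Milr1 0.060 with quantile normalization. Wfdc21 had signals of 8757, 8821 and 15936 with CpG, against 2453, 2477 and 4316 with media.

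Some markers of other cell types also fell with PL2-3. Of 20 myeloid markers, 9 fell and 0 rose, with summed signals of 85611, 121475 and 82042 with PL2-3 and 166242, 169293 and 301169 with media. Lyz2, the macrophage lysozyme, was at 3379, 4290.4 and 6559 with PL2-3, against 10146, 11882 and 33813 with media. Of 8 erythroid and platelet markers, 5 fell. The sums of the 8 were 35856, 45085 and 33187 with PL2-3 and 84787, 78175 and 148521 with media. Both kinds of sum were also below media with the other stimuli. Myeloid sums were 80329, 132476 and 89439 with anti-IgM and 75244, 139096 and 74876 with CpG. No member of these 2 lists was called between PL2-3 and either stimulus. Of 13 T cell markers, 5 fell, with Cd3d at 141, 173 and 125 with PL2-3, against 1155, 1133 and 911 with media. Of 9 NK markers 3 fell, and of 7 plasmacytoid dendritic cell markers 2 fell and 1, Klk1, rose. The rise of Klk1 was lost when the probe sets of a gene were averaged. Media replicate 3 was highest for myeloid and erythroid markers, as it was for mitosis genes and Jchain, and the part of these cells in the results was not tested. Of 26 tested genes associated with human lupus, 4 rose and 9 fell, where 14.6% of all tested genes rose and 17.2% fell.

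**Figure D5:**
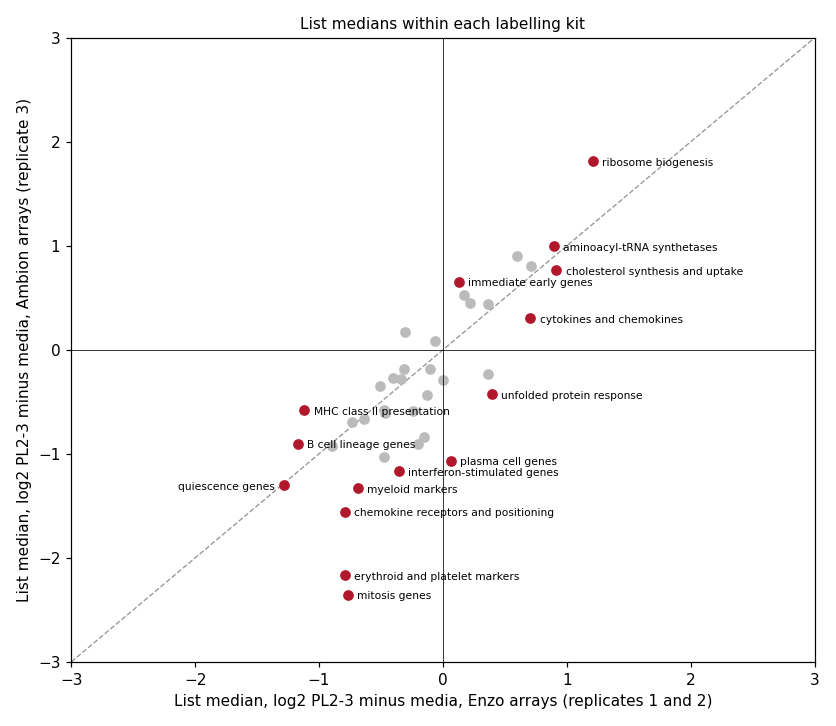
List medians of log2 PL2-3 minus media within Enzo arrays (horizontal) and within Ambion arrays (vertical) for 39 lists; the dashed line marks equal medians. Mitosis genes lie at -0.77 and -2.35, erythroid and platelet markers at -0.79 and -2.17, and interferon-stimulated genes at -0.36 and -1.17, below the line.

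Mir155hg, the host transcript of the B cell microRNA miR-155, was picked after its values were seen. Mir155hg had signals of 3792, 6915 and 1211 on the PL2-3 arrays, against 805, 840.1 and 48.5 on the media arrays. It rose by 2.79 ± 0.35, without overlap between the groups. The array measures the host transcript and not the mature microRNA, which is shown for its seed in capitals. RefSeq GRCm38.p6 gives it at chr16:84714143-84714165 on the plus strand.
mmu-miR-155-5p: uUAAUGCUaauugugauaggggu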

How the data were processed

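RNA from AM-14 B cells was measured on Affymetrix mouse arrays. The deposited values are probe set signals, a linear intensity made with MAS5 per the submitters' processing notes, with no version or target value given. Total RNA was prepared with RNeasy columns and labelled with biotin per the labels' protocols. Control probe sets (64) were left out. Of 45037 others, 34945 had 1 gene symbol in the platform annotation, 932 had several and 9160 had none listed, and only the first kind was named. The brightest probe set on average stood for its gene. The log2 scale had 80.99 added to each signal, the 20th percentile over the arrays, and a gene was tested if 3 or more of the 12 arrays reached their own median.

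The fit held 12 arrays of 4 groups with the labelling kit as a term, in R 4.3.3 with limma 3.58.1 (lmFit, eBayes with trend, 7 residual degrees of freedom). All p-values are two-sided and Benjamini-Hochberg adjusted over all 12764 genes, and a gene was called under 0.05. The 3 arrays with anti-IgM and CpG together were left out of this fit and used only in the alternative with all 15 arrays. They were left out because of the beta-actin ratio of 5' to 3' signal. On replicates 1 and 2 it was 0.105 and 0.193, which goes against their labelled Enzo kit. The number of arrays limits the precision. Simulated data were used to check the fit. Same-numbered arrays deviated from their group means together, with a correlation over 0.1 in 18 of 18 pairs and in 12 of 36 others. For same-numbered arrays of PL2-3 and media it lay between 0.213 and 0.504. The numbers were taken as pairs. The 12 others were all replicates 1 with 2, which share the Enzo kit, so this threshold cannot tell number from kit. Media replicate 1 correlated at 0.3 with PL2-3 replicate 1 and at 0.153 with PL2-3 replicate 2. For media replicate 2 these were 0.313 and 0.213.

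The members and the 39 gene lists were chosen with earlier results of these data known. Named genes were the 14 largest rises and 12 largest falls among called genes with the same direction in all 3 pairs, no overlap, no opposing probe set and a mean at or above the mean array median, up to 4 called members of each list, the 5 largest each way against anti-IgM and CpG, and 13 fixed genes, of which 1 is not reported here. Other list members that are named were chosen after their values were seen. Promoters and the microRNA are from RefSeq, GRCm38.p6. Figures were drawn with Python and matplotlib. The alternatives changed the normalization, pseudocount, filter, kit term, arrays, trend, probe set rule and replicates.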

Additional observations from a re-analysis of the deposited data

Results flagged for a closer look

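Probe sets with no gene symbol in the annotation were outside the gene tests, and 508 of the 3903 that passed the filter differed between PL2-3 and media at an adjusted p under 0.05 in limma. Of these, 147 rose and 361 fell. The 508 are 13% of those tested, in a separate fit of all probe sets that passed the filter. The 31.8% of the 12764 genes tested came from the fit of the brightest probe set per gene, so these shares are not like for like. The probe sets without a symbol were noted because signal appeared in data that the gene comparisons do not use.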

How the results depend on the processing

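Of 162 named genes that changed against media, 133 kept their call under all 25 alternatives. Klk1 reversed to -0.060 when the probe sets of a gene were averaged, with an adjusted p of 0.91, and the cause was not tested. The 4057 called genes numbered 3179 to 4065 when single arrays were left out and 2541 without the labelling term. Against anti-IgM the 163 became 38 without the labelling term, 91 with all 15 arrays, 54 without the intensity trend and 95 with averaged probe sets, and 98 to 255 when single arrays were left out. Against CpG the 634 became 242 without the labelling term, 418 with all 15 arrays and 407 without the trend, and 396 to 836 when single arrays were left out. The replicate block, which uses the pairing, gave 4211, 193 and 675 genes, and no called named gene lost its call against media. Scaling the arrays to the same median moved the median of all genes from -0.0975 to 0.104 and the share of called genes that were higher from 45.8% to 63.6% against media (3496 called), 41.7% to 30.8% against anti-IgM and 50.5% to 26.4% against CpG. The medians of 6 of 39 lists changed sign under some alternative: BAFF and TNF family, ERK feedback, MHC class I, cytokine feedback inhibitors, lysosome and plasma cell genes. With 3 arrays a group, dim genes near the pseudocount have little precision.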

Other observations

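Il12b, the interleukin 12 p40 chain, was 1.15 higher with PL2-3 than with anti-IgM (adjusted p = 0.064) and 1.82 lower than with CpG (adjusted p = 0.00099). Batf was 1.93 higher than with anti-IgM (adjusted p = 0.00039) and 0.70 lower than with CpG, where it did not pass (adjusted p = 0.10). Rasgrp3, an exchange factor of the receptor pathway, was 1.43 lower than with CpG (adjusted p = 0.0016) and did not differ from anti-IgM at the threshold (0.08, adjusted p = 0.96).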
